A study of Rattus norvegicus with 30 samples.

Results

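Lap3, Ace, Anpep, Mep1a, Xpnpep2, Tmprss15 and Cndp2 encode 7 peptidases of the small intestine, and their expression is described here in rat ileum after bariatric surgery. They are 7 of the 14557 genes that had a transcript cluster of their own on the arrays. Each was read from the brightest cluster carrying that symbol alone, and each of the 7 symbols had 1 such cluster (17694897 for Lap3, 17727423 for Cndp2, 17651988 for Ace, 17634203 for Anpep, 17857739 for Mep1a, 17874302 for Xpnpep2 and 17667541 for Tmprss15). The set was chosen on measured values, those of the comparison of gastric bypass with its sham operation, in which Lap3 and Ace stood out. Their values in that comparison are therefore given as a description without a test, and tests are kept for the comparisons among sleeve and sleeve-sham rats.

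Ileum was taken from 30 male Long-Evans rats, wild type and 8 to 10 weeks old, and each rat gave 1 array. RYGB rats (n = 6) had a Roux-en-Y gastric bypass and Sham_RYGB rats (n = 6) its sham surgery. VSG rats (n = 6) had a vertical sleeve gastrectomy, Sham_VSG_PF rats (n = 6) had sham surgery for VSG together with paired feeding, and Sham_VSG rats (n = 6) had that sham surgery alone. Per the labels' protocol, which describes the sleeve and its sham, liquid diet took the place of solid food from the day before surgery, and all animals had isoflurane anaesthesia and a midline incision that laid the stomach bare. In VSG about 80% of the stomach was stapled off along its greater curvature, and in the sham for it the stomach was only pressed with blunt forceps. How the bypass was built, how long after surgery tissue was taken, whether the rats were fasted and which layers of the wall were sampled are not given in the sources used here. Values are log2 signals from the RMA procedure, so a difference of 1 is a doubling, and the signal of a gene is set only against the same gene in other arrays, never against another gene.

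Protein is digested in stages. Pancreatic proteases, which enteropeptidase (Tmprss15) sets going by cutting trypsinogen to trypsin, break protein into short peptides in the lumen. Enzymes anchored in the brush border, the microvillus surface of absorptive enterocytes, then trim these peptides, and the di- and tripeptides that result are carried into the enterocyte and split to amino acids by peptidases of the cytosol. Of the 7 genes, 2 encode cytosolic enzymes. Lap3 is leucine aminopeptidase, which takes single residues from the amino end, and Cndp2 is a dipeptidase of broad specificity. The other 5 encode membrane enzymes of the brush border. Ace (angiotensin-converting enzyme) removes dipeptides from the carboxyl end and is also known from the surface of endothelial cells, where it makes angiotensin II. Anpep (aminopeptidase N) removes single amino-terminal residues. Mep1a is the alpha subunit of the metalloendopeptidase meprin, Xpnpep2 (membrane aminopeptidase P) frees a residue that stands before proline, and Tmprss15 is known chiefly from the duodenum.

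The 250 bases before the annotated start are shown for Lap3 and Ace, whose bypass and sham arrays did not overlap, and for Tmprss15, whose signal was raised in 4 RYGB arrays. They are on the gene's own strand in RefSeq's rat build GRCr8, at chr14:69839892-69840141 (minus strand), chr10:91409879-91410128 (plus strand) and chr11:31289144-31289393 (minus strand). Capitals mark letters that match any of 6 short motifs on either strand, which are spelled out after the sequences.
Lap3: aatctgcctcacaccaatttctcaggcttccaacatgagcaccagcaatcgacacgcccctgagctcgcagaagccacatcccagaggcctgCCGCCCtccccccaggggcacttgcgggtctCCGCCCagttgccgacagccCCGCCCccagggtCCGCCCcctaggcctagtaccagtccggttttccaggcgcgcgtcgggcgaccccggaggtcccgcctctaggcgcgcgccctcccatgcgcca
Ace: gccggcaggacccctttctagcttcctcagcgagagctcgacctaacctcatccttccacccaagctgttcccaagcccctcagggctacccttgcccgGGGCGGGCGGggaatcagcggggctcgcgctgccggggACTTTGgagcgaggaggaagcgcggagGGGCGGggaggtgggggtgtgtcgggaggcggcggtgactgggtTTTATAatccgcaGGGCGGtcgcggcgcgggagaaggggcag
Tmprss15: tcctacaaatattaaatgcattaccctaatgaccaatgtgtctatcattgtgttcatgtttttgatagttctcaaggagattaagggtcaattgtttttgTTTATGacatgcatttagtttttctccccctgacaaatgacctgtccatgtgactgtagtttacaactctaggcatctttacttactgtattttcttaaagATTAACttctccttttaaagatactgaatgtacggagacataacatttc

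The Lap3 and Ace windows were rich in G and C (68.8% and 69.2% of bases) and held 21 and 23 CG pairs, whereas the Tmprss15 window was 33.2% G and C with 1 CG pair. Over the 33465 windows of the same length in the RefSeq table the median was 51.2% with 5 CG pairs. The GC box (GGGCGG) occurred in 3 of the 7 members' windows, at 4 places each in Lap3, Ace and Cndp2 (2 of those in Ace overlap each other), against 30.5% of all windows. Letters bound by the factor HNF1 in other promoters (GTTAAT) lay in the windows of Anpep and Tmprss15, against 6.45% of all windows. Those of an HNF4 site (CAAAGT) lay in the windows of Ace and Mep1a, against 12.9%. Those of a site for the intestinal factors of the CDX family (TTTATG) lay in the windows of Mep1a and Tmprss15, against 11.4%. The TATA box (TATAAA) matched in Ace alone of the 7, against 12.9% of all windows. The site of GATA factors (AGATAA) matched in none of the 7, against 10.3%, and the Xpnpep2 window held none of the 6 motifs. The windows of Anpep and Xpnpep2 lay inside the annotated span of their genes, not before its outer end. These are matches of letters, not binding sites.

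The arrays had median log2 signals between 3.101 and 3.247. Markers of the ileal enterocyte were bright: the bile acid genes Fabp6 and Slc10a2 averaged log2 signals of 12.03 and 10.35 over the 30 arrays. The mean of 9 B and plasma cell markers fell into 2 separate ranges, 7.07 to 8.41 in 11 arrays (1 RYGB, 3 Sham_RYGB, 2 VSG, 2 Sham_VSG_PF and 3 Sham_VSG) and 4.69 to 5.52 in the other 19. The mean of 8 fat cell markers was 5.66 to 6.55 in 4 arrays (3 RYGB and 1 VSG) and 3.65 to 4.16 in the other 26. Ileal tissue is a mixture, and in such bulk samples fewer cells of a type and less RNA per cell cannot be told apart. All 7 genes passed the filter on dim genes, a mean log2 signal of at least 2.33 over the 30 arrays, which left 10918 genes. Tmprss15 passed through the RYGB arrays, for its mean was 2.38 over all arrays and 2.07 over the 24 others.

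After the bypass every one of the 7 genes had a higher mean than after its sham operation, with the widest differences among the 6 bright genes in Ace and Lap3. The log2 differences (RYGB minus Sham_RYGB) were 1.29 for Ace and 0.84 for Lap3, and 0.34 for Cndp2, 0.25 for Mep1a, 0.22 for Xpnpep2 and 0.20 for Anpep. Tmprss15 is given by its signals alone, with no size or rank of its difference, since its sham mean lay below the dim-gene level. Over the 10918 genes the median was -0.01 and 48.0% were higher, whereas the 7 were chosen with this contrast known. Of all genes 0.183% passed limma's test at an adjusted p of 0.05 in this comparison, and nothing is read from the members' own calls, since the same contrast chose them.

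**Figure D1:**
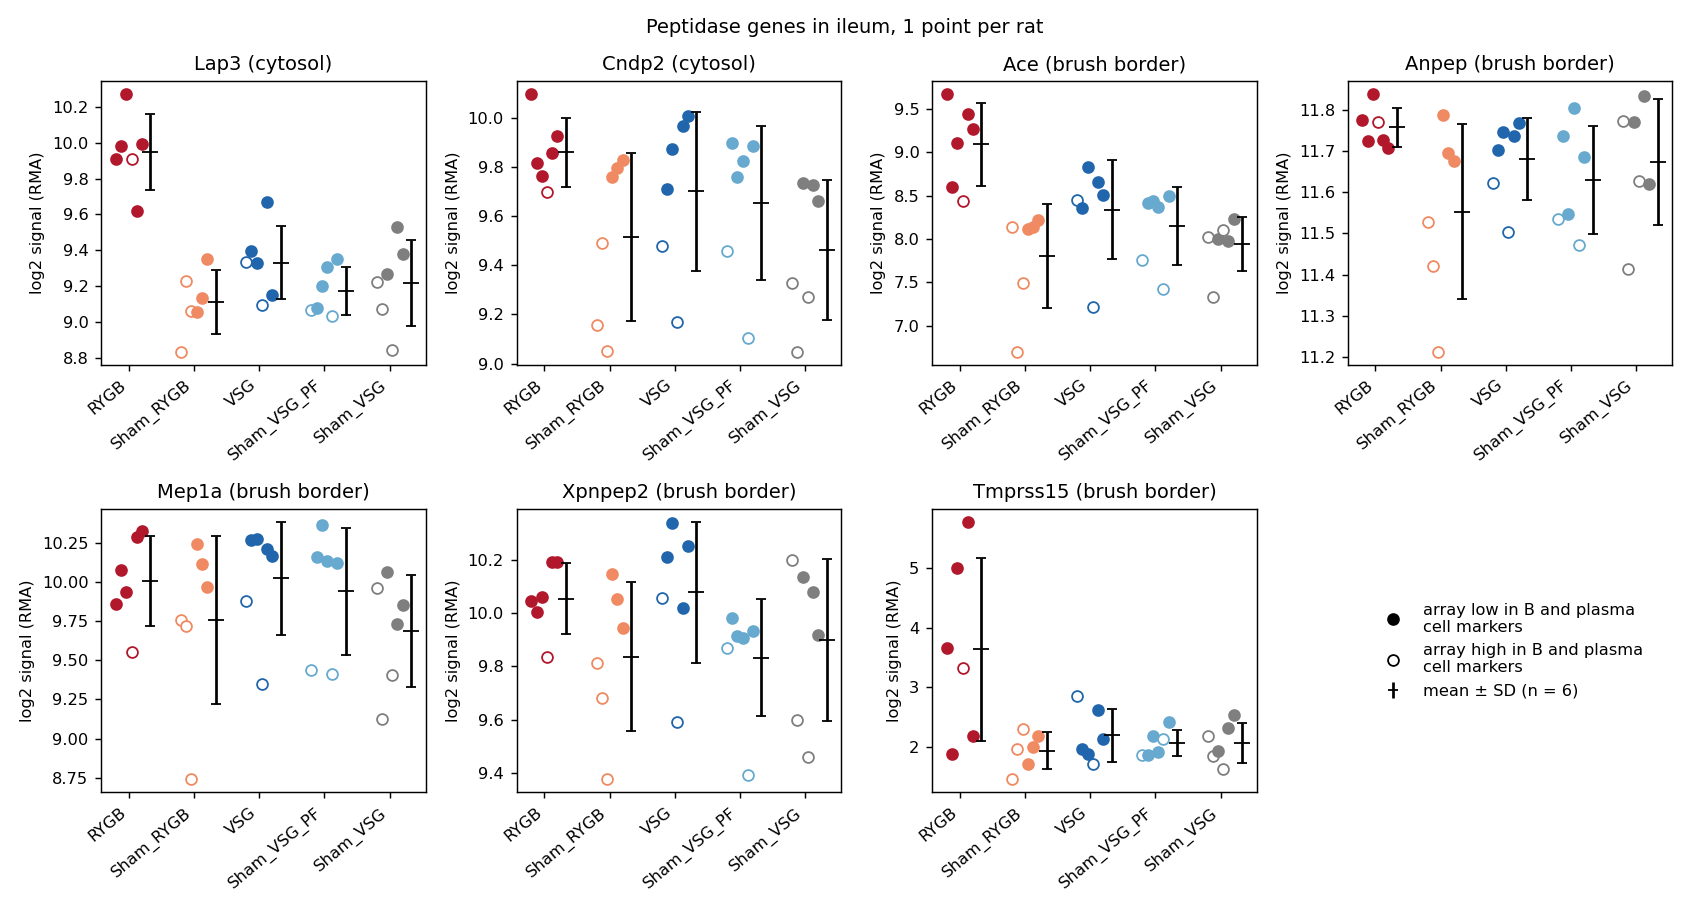
Log2 RMA signal (y axis) of the 7 peptidase genes, 1 point per rat in 5 groups of 6, with the mean ± SD beside the points; open points are the 11 arrays high in B and plasma cell markers. Lap3 and Ace lie higher in all 6 RYGB arrays than in any Sham_RYGB array, Tmprss15 is spread from 1.87 to 5.78 in RYGB, and most of the lowest points of Cndp2, Mep1a and Xpnpep2 are open.

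Lap3, the cytosolic leucine aminopeptidase, ran from 9.62 through a median of 9.95 to 10.27 in the RYGB arrays, against 8.83, 9.10 and 9.35 in the Sham_RYGB arrays. The groups did not overlap, and 5 of the 6 RYGB arrays lay above all 24 arrays of the other groups, the highest of which was a VSG array at 9.67. The means were 9.95 ± 0.21 after RYGB and 9.11 ± 0.18 after its sham (SD, n = 6 each), a 1.79-fold difference. Groups that do not overlap, with RYGB higher, were seen in 0.458% of all genes. The other group means of Lap3 lay close together, at 9.33 ± 0.20 in VSG, 9.17 ± 0.13 in Sham_VSG_PF and 9.22 ± 0.24 in Sham_VSG (SD, n = 6 each). By mean the order was RYGB, VSG, Sham_VSG, Sham_VSG_PF and Sham_RYGB, and below RYGB no step between neighbours exceeded 0.11, which was less than their SDs.

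Cndp2, the cytosolic dipeptidase, differed less. It ran from 9.70 through 9.84 to 10.10 in RYGB, against 9.05, 9.62 and 9.83 in Sham_RYGB. The lowest RYGB array was thus within the sham range, and 3 of 6 RYGB arrays were above all sham arrays. The means were 9.86 ± 0.14 and 9.51 ± 0.34 (SD, n = 6 each), a 1.27-fold difference. In order of means VSG, at 9.70 ± 0.32, and Sham_VSG_PF, at 9.66 ± 0.31, came next in order, followed by Sham_RYGB and by Sham_VSG at 9.46 ± 0.29, with each neighbouring pair overlapping.

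Among the brush border genes Ace differed the most of those with a bright signal. Its values were 8.44, 9.19 and 9.67 (lowest, median and highest) in RYGB, against 6.70, 8.12 and 8.22 in Sham_RYGB. Again the groups did not overlap, and 4 of 6 RYGB arrays exceeded every array of the other 4 groups. The means of 9.09 ± 0.48 and 7.80 ± 0.60 (SD, n = 6 each) differed 2.44-fold. VSG followed at 8.34 ± 0.57, then Sham_VSG_PF at 8.15 ± 0.45, Sham_VSG at 7.94 ± 0.31 and Sham_RYGB, each step within the SDs except the one from RYGB to VSG, which was 0.75. Endothelial markers had a list mean of 5.04 ± 0.16 in RYGB and 5.08 ± 0.19 in Sham_RYGB (6 of 8 markers measured, SD, n = 6 each), a difference of -0.05. Whether blood vessels had a part in the Ace signal was not tested.

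Tmprss15, the enteropeptidase gene, was low in every sham array and uneven after bypass. In RYGB it ran from 1.87 through a median of 3.49 to 5.78, against 1.45, 1.98 and 2.31 in Sham_RYGB. The 4 RYGB arrays above all 24 others were replicates 1, 3, 4 and 5, at 3.66, 5.01, 3.33 and 5.78, while replicates 2 and 6, at 1.87 and 2.18, were within the sham range. The means were 3.64 ± 1.53 in RYGB and 1.93 ± 0.31 in Sham_RYGB (SD, n = 6 each), the sham mean lying below the dim-gene level of 2.33. The highest value in any group but RYGB was 2.85, in VSG. Of the 4 RYGB arrays with the raised signal, replicates 1 and 3 were high in fat cell markers (means of 6.54 and 5.94), and replicates 4 and 5 were not (3.70 and 3.73). The 8 pancreatic acinar markers measured averaged 2.55 ± 0.11 in RYGB and 2.43 ± 0.08 in Sham_RYGB (SD, n = 6 each). Of these 8 markers 3 passed the filter on dim genes, Cela1, Cela2a and Ctrb1, with log2 means of 3.82, 3.62 and 2.74 over the 30 arrays. The others, among them Prss1, Pnlip and Cpa1 at 1.82, 1.84 and 2.13, lay below the dim-gene level. Whether pancreatic tissue had a part in the Tmprss15 signal was not tested.

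Anpep, Mep1a and Xpnpep2 overlapped between RYGB and its sham. Anpep lay between 11.71 and 11.84 (median 11.75) in RYGB, against 11.21 to 11.79 (median 11.60) in Sham_RYGB, with means of 11.76 ± 0.05 and 11.55 ± 0.21 (SD, n = 6 each), a 1.15-fold difference. Its RYGB arrays were packed within 0.13, against 0.57 in the sham arrays. The 3 sham arrays high in B and plasma cell markers were at 11.53, 11.42 and 11.21, and the other 3 at 11.79, 11.69 and 11.68. Mep1a lay between 9.55 and 10.32 (median 10.00) in RYGB, against 8.74 to 10.24 (median 9.86) in Sham_RYGB, with means of 10.00 ± 0.29 and 9.75 ± 0.54 (SD, n = 6 each), a 1.19-fold difference. A single array, Sham_RYGB replicate 3, weighed on it, for the difference of 0.25 was 0.05 without it. Without the same array the difference was 0.13 for Xpnpep2, 0.14 for Anpep and 0.25 for Cndp2. Xpnpep2 lay between 9.83 and 10.19 (median 10.05) in RYGB, against 9.38 to 10.15 (median 9.88) in Sham_RYGB, with means of 10.05 ± 0.13 and 9.84 ± 0.28 (SD, n = 6 each), a 1.16-fold difference. For Mep1a and Xpnpep2 the VSG mean was the highest of the 5, 0.02 above RYGB for each.

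Signals of cell types also differed among the arrays, and their part in the differences was not tested. Over all groups the 11 arrays high in B and plasma cell markers had lower medians of the bright brush border genes, with overlapping ranges. Mep1a ran from 8.74 through 9.44 to 9.96 in them, against 9.73, 10.14 and 10.36 in the other 19. The medians were 7.76 against 8.44 for Ace, 11.53 against 11.74 for Anpep and 9.68 against 10.05 for Xpnpep2. The highest of the 11 reached 11.77 for Anpep and 10.20 for Xpnpep2, above the medians of the other 19. Cndp2 ran from 9.05 through 9.27 to 9.70 in these 11, against 9.66, 9.82 and 10.10, so that the 2 sets barely touched. Lap3 overlapped much more, at 8.83 through 9.07 to 9.91 against 9.06, 9.35 and 10.27. The RYGB group had 1 such array and Sham_RYGB had 3, and the list mean was 5.41 ± 1.08 in RYGB and 6.55 ± 1.61 in Sham_RYGB (SD, n = 6 each). The 11 enterocyte markers averaged 10.50 ± 0.20 in RYGB and 10.24 ± 0.29 in Sham_RYGB (SD, n = 6 each).

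**Figure D2:**
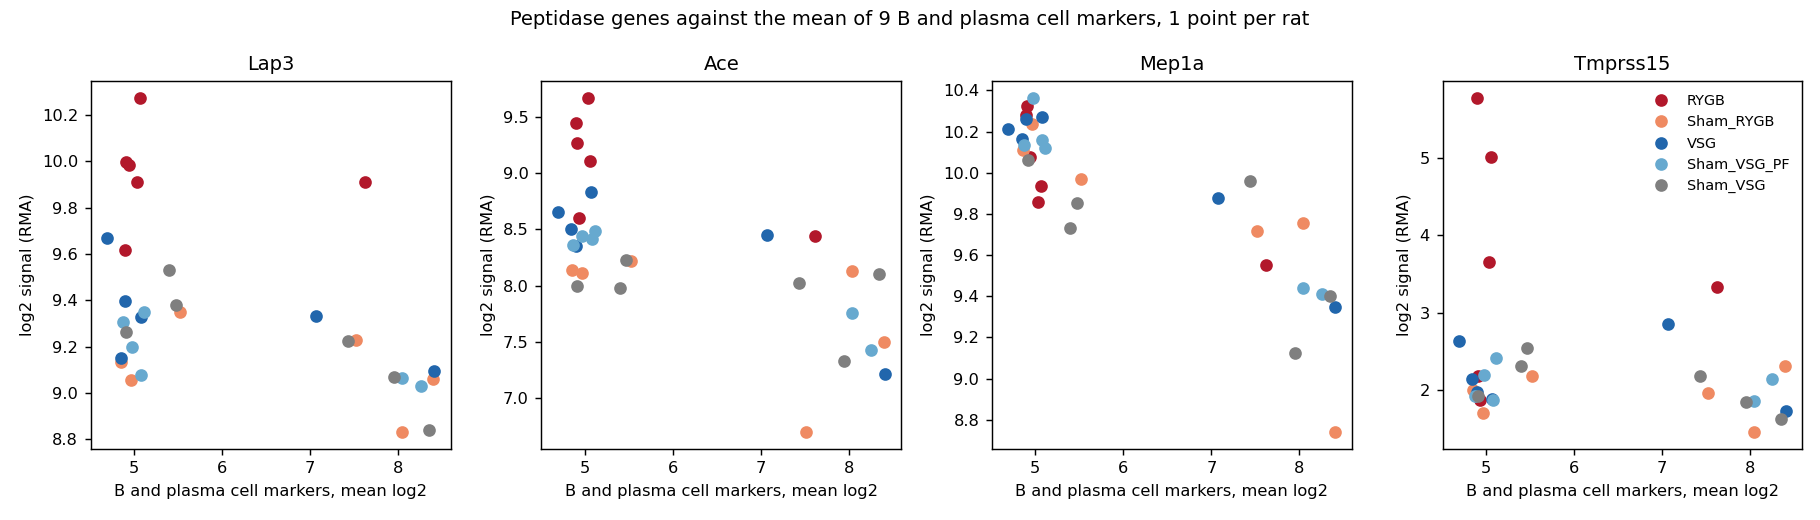
Log2 signal of Lap3, Ace, Mep1a and Tmprss15 (y axis) against the mean log2 signal of 9 B and plasma cell markers (x axis), 1 point per rat, coloured by group. The arrays fall into 2 ranges on the x axis, 4.69 to 5.52 and 7.07 to 8.41; Mep1a is at most 9.96 in the upper range, and the RYGB points of Lap3 lie above the sham points in both.

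With the 8 arrays low in B and plasma cell markers alone (5 RYGB and 3 Sham_RYGB), the bypass difference was 0.78 for Lap3 and 1.06 for Ace. In the same arrays it was 0.10 for Cndp2, 0.04 for Anpep, 0.05 for Xpnpep2 and -0.01 for Mep1a. Adding the enterocyte marker mean to the model of all arrays gave 0.77 and 1.00 for Lap3 and Ace, and 0.14, 0.13, 0.04 and 0.003 for Cndp2, Anpep, Xpnpep2 and Mep1a. In both settings the differences of Lap3 and Ace were 0.77 or more, and those of the other 4 bright genes were 0.14 or less, although Ace too was lower than its 1.29 over all arrays. Without the 3 RYGB arrays and the VSG array high in fat cell markers, the differences were 0.73 and 1.03 for Lap3 and Ace, and 0.28, 0.19, 0.17 and 0.22 for Cndp2, Anpep, Xpnpep2 and Mep1a. Each setting was compared by its value only, with no test of the members.

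**Figure D3:**
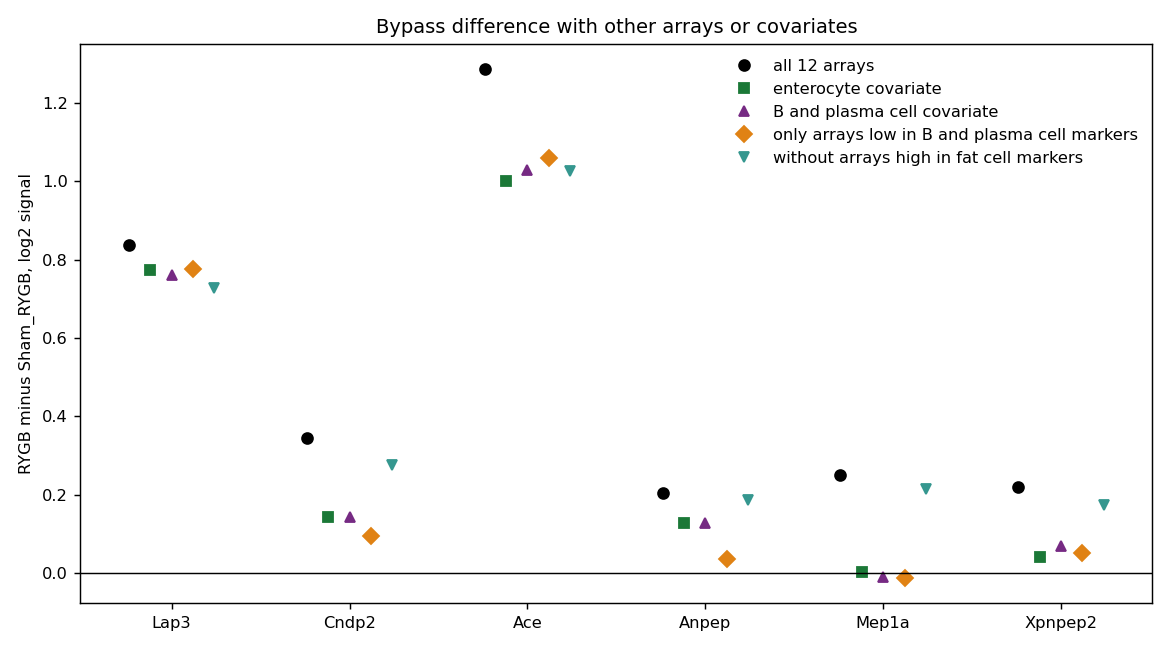
Difference of log2 signal, RYGB minus Sham_RYGB (y axis), for the 6 bright peptidase genes with all 12 arrays, with 2 marker covariates, with the arrays low in B and plasma cell markers alone and without the arrays high in fat cell markers. Lap3 and Ace stay at 0.73 or above in each setting, and Mep1a runs from -0.01 to 0.25.

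The sleeve operation was compared with its sham without paired feeding to ask how the same genes differed after VSG. These arrays were not in the bypass contrast, but the members were chosen with earlier results of these data known. Tmprss15 is left out of the counts in the sleeve comparisons, since it passed the dim-gene filter only through the RYGB arrays. The 6 bright genes all had higher means after VSG, by log2 differences of 0.01 to 0.39. The median over all genes was -0.03, and Anpep stood at -0.002 with quantile normalization. In the arrays low in B and plasma cell markers Lap3 and Anpep were lower, at -0.004 and -0.003. With all arrays none of the 6 passed limma's test (adjusted p between 0.843 and 0.987, unadjusted p between 0.142 and 0.939). No gene of the 10918 passed in this comparison (0%), and 661 had an unadjusted p under 0.05. Ace had the widest difference, with 7.22, 8.48 and 8.83 (lowest, median and highest) in VSG, against 7.33, 8.01 and 8.23 in Sham_VSG. Of the 6 VSG arrays 5 were above all Sham_VSG arrays, and replicate 4 was below them all. The log2 difference of 0.39 had a 95% confidence interval of -0.16 to 0.95 (limma adjusted p = 0.843), and it was 0.62 without that array (limma adjusted p = 0.439). The interval holds folds from 0.893 to 1.93.

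Mep1a ran from 9.35 through 10.19 to 10.27 in VSG, against 9.13, 9.79 and 10.06 in Sham_VSG. Its difference of 0.33 (95% interval -0.12 to 0.79) did not pass, although 4 of 6 VSG arrays were above all Sham_VSG arrays. Lap3 ran from 9.10 through 9.33 to 9.67 in VSG, against 8.84, 9.24 and 9.53 in Sham_VSG, with 1 VSG array above the sham range. The Lap3 difference was 0.11 with a 95% interval of -0.13 to 0.35, so that a rise of over 1.27-fold after VSG lay outside it. Cndp2 and Xpnpep2 differed by 0.24 (95% interval -0.10 to 0.57) and 0.18 (95% interval -0.11 to 0.47). Anpep differed by 0.01, with a 95% interval of -0.17 to 0.19. Tmprss15 ran from 1.72 through 2.05 to 2.85 in VSG, against 1.62, 2.05 and 2.54 in Sham_VSG, and both means lay below the dim-gene level, so no difference is read for it. The bypass and sleeve differences share no arrays, and the gap between them was not tested, because the bypass values chose the genes.

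**Figure D4:**
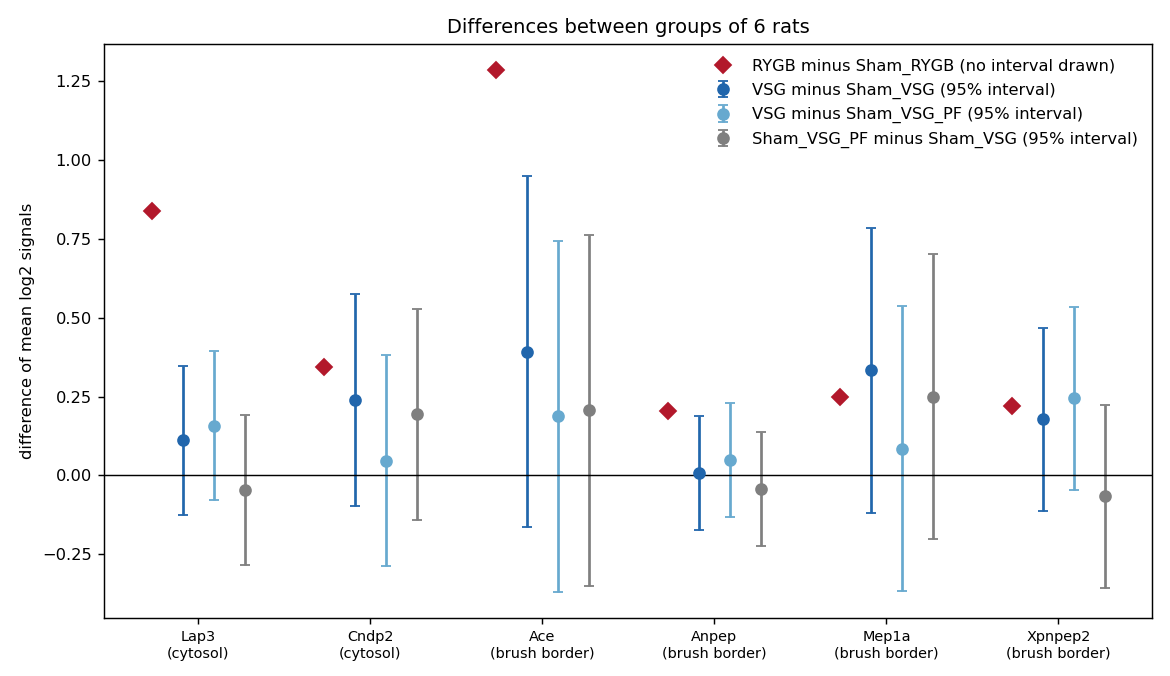
Difference of mean log2 signal (y axis) for the 6 bright peptidase genes in 4 comparisons of 6 rats with 6. Circles carry limma's 95% confidence interval, each of which includes 0; diamonds, the bypass comparison, carry none and reach 0.84 for Lap3 and 1.29 for Ace.

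Against the pair-fed sham, Sham_VSG_PF, the 6 bright genes were all higher after VSG, by log2 values of 0.05 to 0.24. The median over all genes was -0.02. With the enterocyte covariate Cndp2 was at -0.066 and Mep1a at -0.053, and without Sham_VSG_PF replicate 5 they were at -0.064 and -0.021. By limma none of the 6 passed (adjusted p of 0.865 to 0.989, unadjusted p of 0.0954 to 0.781), as for all genes (0%, with 649 at an unadjusted p under 0.05). Xpnpep2 had the smallest p: it ran from 9.59 through 10.13 to 10.34 in VSG, against 9.39, 9.91 and 9.98 in Sham_VSG_PF, and 5 of 6 VSG arrays exceeded every pair-fed array. Its difference was 0.24 (95% interval -0.05 to 0.53; limma adjusted p = 0.865). Lap3 ran from 9.10 through 9.33 to 9.67 in VSG, against 9.03, 9.14 and 9.35 in Sham_VSG_PF, a difference of 0.16 (95% interval -0.08 to 0.39). For Ace, at 8.34 ± 0.57 in VSG and 8.15 ± 0.45 in Sham_VSG_PF (SD, n = 6 each), the difference of 0.19 was 0.04 without Sham_VSG_PF replicate 5 and 0.41 without VSG replicate 4.

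Under paired feeding itself, Sham_VSG_PF against Sham_VSG, the means of Cndp2, Ace and Mep1a were higher. Those of Lap3, Anpep and Xpnpep2 were lower, and the enterocyte covariate turned them to 0.004, 0.016 and 0.070. Differences of the 6 bright genes ran from -0.07 (Xpnpep2) to 0.25 (Mep1a), beside a median of -0.01 over all genes. By limma none of the 6 passed (adjusted p of 0.977 to 0.991, unadjusted p of 0.247 to 0.693), nor did any other gene (0%, with 582 at an unadjusted p under 0.05). Lap3 was at 9.17 ± 0.13 in Sham_VSG_PF and 9.22 ± 0.24 in Sham_VSG (SD, n = 6 each), with a 95% interval of -0.28 to 0.19 for the difference. Mep1a was at 9.94 ± 0.41 and 9.69 ± 0.36 (SD, n = 6 each), with a 95% interval of -0.20 to 0.70. These 3 sleeve comparisons share arrays in pairs, so their values are not independent of each other.

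Of 39 other genes of peptide breakdown and uptake, 26 were tested. Among those without a cluster named for them alone, and so not analysed here, were the brush border genes Dpp4, Enpep, Mep1b, Ggt1 and Naaladl1. In none of the 4 comparisons did a gene of this list pass limma's test (0 of 26 in each, higher or lower). The 7 members, chosen with the bypass contrast known, are not in the list, so its bypass count leaves out Lap3 and Ace. At an unadjusted p under 0.05 stood 7 after bypass (5 higher, 2 lower), where 1414 of all 10918 genes did, 1 after VSG against Sham_VSG, 0 after VSG against Sham_VSG_PF and 1 under paired feeding. After bypass the 5 brush border genes tested were all higher than in the sham (median 0.28), the 12 cytosolic ones were 7 higher and 5 lower (median 0.11), and the 8 lysosomal ones were 2 higher and 6 lower (median -0.05). The peptide carrier gene Slc15a1 was higher by 0.22 (1 gene). Those with the smallest p were Ctsb and Dpep1. Ctsb, a lysosomal cathepsin, was at 9.88 ± 0.13 in RYGB and 9.67 ± 0.06 in Sham_RYGB (SD, n = 6 each; limma adjusted p = 0.317). Dpep1, a membrane dipeptidase of the brush border, was at 11.11 ± 0.11 in RYGB and 10.76 ± 0.41 in Sham_RYGB (SD, n = 6 each, limma adjusted p = 0.320). The 5 brush border genes were also all higher under paired feeding (median 0.07), and 3 of 5 were higher after VSG against either sham. The enterocyte marker mean was itself higher by 0.27 after bypass, and its part in these directions was not tested.

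After VSG the same list had 13 genes higher and 13 lower than Sham_VSG (median 0.01). Pgpep1, which removes a pyroglutamyl residue, was at 5.28 ± 0.37 in VSG and 4.93 ± 0.08 in Sham_VSG, and Nln, the oligopeptidase neurolysin, was at 6.57 ± 0.27 and 6.84 ± 0.20 (SD, n = 6 each; limma adjusted p = 0.776 and 0.828). Against Sham_VSG_PF, 15 were higher and 11 lower after VSG (median 0.03). The 2 with the smallest p there were Acy1, which deacylates amino acids, and Xpnpep1, the cytosolic aminopeptidase P, higher by 0.31 and 0.19 (limma adjusted p = 0.865 and 0.876). Under paired feeding 12 were higher and 14 lower than in Sham_VSG (median -0.02). Apeh, which frees acylated residues from peptides, and the carnosinase gene Cndp1 had the smallest p, with differences of -0.23 and 0.46 (limma adjusted p = 0.908 and 0.938).

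How the 7 genes varied together from rat to rat was examined on deviations from group means, which leave out the differences between groups. Because the arrays fell into 2 ranges of B and plasma cell markers, the 21 pairs were correlated within each range. Tmprss15 is counted among the 7 genes and the 21 pairs. Its mean outside RYGB lay below the dim-gene level, so nothing is read from its correlations. Among the 19 arrays of the lower range Pearson's r ran from -0.61 to 0.52 with a median of -0.05, and 0 of 21 pairs passed after Benjamini-Hochberg adjustment of permutation p-values over the pairs (by Pearson or Spearman). The lowest was Lap3 with Xpnpep2 (r = -0.61, rho = -0.63, two-sided permutation p = 0.0219 and 0.0160, adjusted p = 0.403 and 0.336), and r was -0.75 without the 2 arrays farthest from the Lap3 median. Mep1a with Xpnpep2 had r = 0.51 and rho = 0.54 (permutation p = 0.0383 and 0.0375, adjusted p = 0.403 and 0.394; r = 0.53 without the 2 farthest arrays).

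In the upper range 10 arrays could be used, since its single RYGB array has no group to deviate from. There r ran from -0.26 to 0.93 with a median of 0.44, and 0 of 21 pairs passed. These arrays form groups of 2 or 3, so permutation within groups allows few arrangements. No single pair could therefore pass at any r, and the 0 of 21 decides nothing. Anpep with Mep1a was the highest (r = 0.93, rho = 0.96, permutation p = 0.00697 for both, adjusted p = 0.146 for both; r = 0.77 without the 2 farthest arrays). Without the 2 farthest arrays r was 0.37 for Anpep with Xpnpep2, against 0.75 with them, and 0.54 for Mep1a with Xpnpep2, against 0.78. Each member was also set against the enterocyte marker mean, and 0 of 7 relations passed in either range. In the upper range the highest were Cndp2 (r = 0.84, rho = 0.66, permutation p = 0.0354 and 0.0631, adjusted p = 0.150 and 0.158; r = 0.77 without the 2 farthest arrays) and Xpnpep2 (r = 0.81, rho = 0.70, permutation p = 0.0696 and 0.139, adjusted p = 0.163 and 0.195; r = 0.65 without them).

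**Figure D5:**
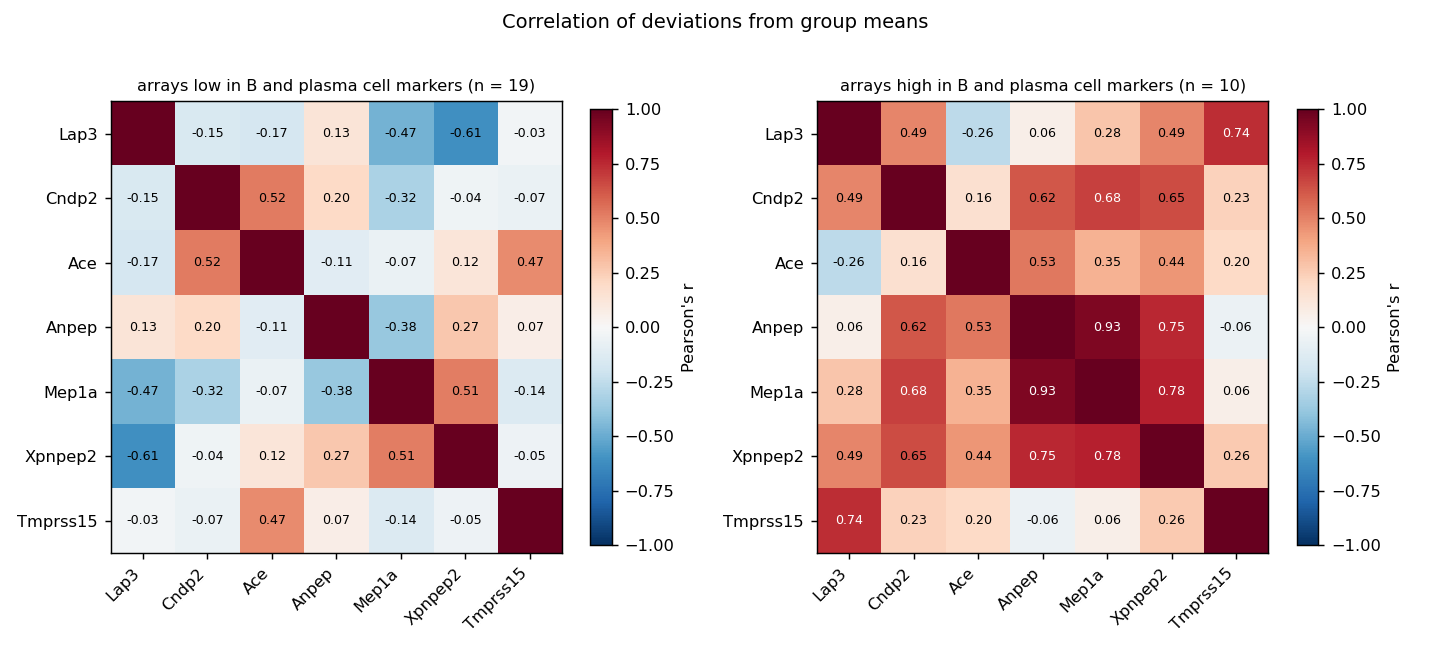
Pearson's r between deviations from group means for each pair of peptidase genes, within the 19 arrays low (left) and 10 arrays high (right) in B and plasma cell markers; red is positive and blue negative. The brush border genes Anpep, Mep1a and Xpnpep2 correlate at 0.75 to 0.93 on the right (0.37 to 0.77 without the 2 farthest arrays of each pair). On the left they correlate at -0.38 to 0.51. No pair passed the adjusted test, which no single pair on the right could have passed at any r. Pairs with Tmprss15 are drawn, but its mean outside RYGB lay below the dim-gene level and nothing is read from them.

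The genes whose deviations from group means were most like those of Lap3 over the 30 arrays were Atp10b, Mmgt2, Fech, Gjb2 and Me2 (Pearson's r of 0.78, 0.75, 0.74, 0.74 and 0.73). Fech inserts iron into protoporphyrin to make haem, Gjb2 is a gap junction connexin and Me2 is a mitochondrial malic enzyme. In the 19 arrays low in B and plasma cell markers their r with Lap3 was 0.59 to 0.71. In this order of 10917 genes the highest of the other 6 peptidases was Cndp2, at place 415. Its r with Lap3 was 0.50 over the 30 arrays and -0.15 in the 19 low arrays. For Ace the most alike were Rb1cc1, Gucy2c, Wfdc1, F2rl2 and Clca4 (r of 0.84, 0.81, 0.81, 0.79 and 0.79), among them Gucy2c, the guanylin receptor of the intestinal epithelium. In the 19 arrays their r with Ace ran from 0.21 (Clca4) to 0.79 (F2rl2). Points in these orders share the array and its tissue makeup, and the values are descriptions.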

How the data were processed

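The deposited values are log2 signals, 1 per transcript cluster and array, for which the submitters' processing notes name RMA and version 1.3.0.187 of Affymetrix Expression Console. RMA corrects background and quantile normalizes; which arrays were normalized together is not given. RNA was amplified and biotin-labelled before hybridization to 1-colour arrays, per the labels. Of 36685 clusters, 14824 carried 1 gene symbol, 829 several and 21032 were unnamed here. The brightest cluster per symbol was kept (14557 genes), and those whose mean fell under the 25th percentile (log2 signal 2.33) were dropped, which left 10918.

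limma 3.58.1 (R 4.3.3) estimated 5 group means from the 30 arrays (25 residual degrees of freedom), with two-sided p-values adjusted by Benjamini and Hochberg over all genes of a contrast and a threshold of 0.05. The median 95% interval of a log2 difference reached 0.31 to either side; the number of rats limits the precision. Correlations used 100000 permutations within groups, although the small groups of the upper range allow far fewer distinct arrangements. The fit was tested on simulated data. Figures used matplotlib 3.10.9 in Python 3.11.15.

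The members, lists and tests were chosen with earlier results of these data known. Named genes are the 7 members, the 2 other peptidases with the smallest p per contrast and the 5 genes most like Lap3 and Ace. Marker lists covered enterocytes, B and plasma, fat, smooth muscle, macrophage, endothelial, pancreatic acinar, interferon response, goblet and Paneth genes; in RYGB and Sham_RYGB the means were 8.37 and 8.35 for smooth muscle, 6.10 and 6.27 for macrophages, 6.79 and 6.89 for interferon response, 11.02 and 10.85 for goblet and 8.02 and 8.01 for Paneth genes. Alternatives were quantile normalization, median centring, other filters, fits of only the groups compared, a replicate block, the mean of a gene's clusters, marker covariates, array weights and leaving out arrays.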

Additional observations from a re-analysis of the deposited data

Results flagged for a closer look

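In 4 of the 35 sets of 6 arrays (7 genes in 5 groups) 1 array lay far from the other 5, each time at the low end. Chance alone would give about 1 in 20 such sets at this limit. Ace was at 7.22 in VSG replicate 4, with the next VSG array at 8.36. Ace was also at 7.33 in Sham_VSG replicate 2, with the next at 7.98. Mep1a was at 8.74 in Sham_RYGB replicate 3, with the next at 9.71. Xpnpep2 was at 9.39 in Sham_VSG_PF replicate 5, with the next at 9.87. All 4 arrays were among the 11 high in B and plasma cell markers, and their part in these low values was not tested.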

How the results depend on the processing

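For the 7 genes in the 3 sleeve comparisons, 522 values under alternatives were computed, and none passed the threshold. Of these, 489 kept their direction and 33 turned it. Tmprss15 is counted in these totals. Its means in the 3 sleeve groups lay below the dim-gene level, so no direction is read for it and its turns are not listed. After VSG against Sham_VSG, Anpep (0.01) turned to -0.002 with quantile normalization, -0.043 with a B and plasma cell covariate, -0.003 with only the arrays low in those markers (chosen after the data were seen), and ran from -0.045 to 0.042 with 1 array left out. Tmprss15 turned to -0.108 and Lap3 to -0.004 with only the low arrays, and Tmprss15 to -0.004 without the fat-high arrays (also chosen afterwards) and -0.004 to 0.223 with 1 left out. Against Sham_VSG_PF an enterocyte covariate gave -0.066 for Cndp2 and -0.053 for Mep1a (-0.064 to 0.152 and -0.021 to 0.219 with 1 left out). Under paired feeding it gave 0.004 for Lap3, 0.016 for Anpep, 0.070 for Xpnpep2 and 0.131 for Tmprss15, which was 0.022 with median centring; with 1 left out Lap3 ran from -0.122 to 0.016, Xpnpep2 from -0.154 to 0.022 and Tmprss15 from -0.094 to 0.090.

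Of all genes, 20 passed after bypass, but 0 with only the groups compared (1225 at an unadjusted p under 0.05), 4 with an enterocyte and 2 with a fat cell covariate, 8 in the low arrays, 1 without the fat-high arrays, and 2 to 41 with 1 left out. Under paired feeding 0 passed, but 3 with an enterocyte covariate, 1 in the low arrays and 0 to 1 with 1 left out. Over both ranges together 11 member pairs passed, against 0 within the lower and 0 within the upper range. In the upper range no single pair could have passed, so its 0 decides nothing. The cause of the change from 11 pairs to 0 was not tested. With the replicate number as a block 18 genes passed after bypass and 0 in each sleeve comparison. Same-numbered arrays correlated in their deviations from -0.57 to 0.24 after bypass and from -0.18 to 0.68 for VSG with Sham_VSG, where 5 of 6 pairs were over 0.1 and 3 of 6 matched their own number best. In no comparison were all 6 pairs over 0.1. No pairing was assumed, although these values cannot show that there was none. Median centring raised the bypass median of all genes to 0.07. A filter at the 50th percentile left no value for Tmprss15.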
